A study of Mus musculus with 15 samples.

Results

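The nuclear genes for the subunits of the mitochondrial respiratory chain were examined for open chromatin in sorted mouse haematopoietic stem cells (HSC). They were chosen by symbol from the RefSeq annotation of the mouse build GRCm38.p6, the assembly behind mm10. Protein-coding genes whose symbol begins with Ndufa, Ndufb, Ndufc, Ndufs, Ndufv, Uqcr, Cox4, Cox5, Cox6, Cox7, Cox8 or Atp5 were taken, together with Sdha, Sdhb, Sdhc, Sdhd, Cyc1 and Cycs. The Ndufaf assembly factors and 19 pseudogenes with such symbols were left out. The rule found 90 genes among 21887 protein-coding nuclear genes. They comprised 39 genes of complex I, 4 of complex II, 9 of complex III, the cytochrome c gene Cycs, 20 of complex IV and 17 of the ATP synthase, complex V. Ndufa4, which carries a complex I name but is now placed in complex IV, and its paralogue Ndufa4l2 were counted with complex IV.

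The respiratory chain oxidises NADH at complex I and succinate at complex II, and passes electrons through complex III and cytochrome c to oxygen at complex IV. The proton gradient built on the way drives ATP synthesis at complex V. Its subunits come from both genomes, so that nuclear genes on many chromosomes must be transcribed together with mitochondrial DNA. The transcription factor NRF1, the ETS-family factor GABP and YY1 are known regulators of these nuclear genes, and YY1 with the coactivator PGC-1α links them to mTOR activity in muscle cells. Quiescent HSC are known for relying on glycolysis more than on oxidative phosphorylation.

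Chromatin was profiled by ATAC-seq, in which a transposase inserts adapters into accessible DNA, with 1 library per genotype. The KO library came from adult Mx1-Cre+/-;mTORflox/flox mice, in which Cre deletes the floxed Mtor alleles. The KI library came from Mx1-Cre+/-;mTORflox/knockin mice, in which Cre deletes the floxed Mtor allele and a knock-in allele remains. The WT control came from Mx1-Cre-/-;mTORflox/flox mice, which carry the floxed alleles without Cre. All mice were given poly(I:C), which induces the interferon-responsive Mx1 promoter that drives Cre, and 50000 sorted cells entered each transposition. Neither the number of animals behind a library nor the change in the knock-in allele is given in the sources used here. Cre is present in KO and KI but missing from WT, so that against WT an effect of Cre and one of the Mtor alleles cannot be told apart. In KI against WT, the change in the knock-in allele and loss of the floxed copy cannot be told apart either. KO and WT carry a label of re-analysis that KI lacks, and hence a batch and the knock-in genotype cannot be told apart either.

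The deposited lists held 19189 peaks in KO, 28391 in KI and 17316 in WT, at an unknown read depth. Each peak carries a score given by the authors, taken here to be −10 × log10 of the MACS p-value because its minimum is 50 in KO and KI and 50.01 in WT. The score is used here within its own list, as the percentile of peaks with an equal or lower score, and no change is read from percentiles of lists of different length. A gene-end peak is a peak that comes within 1000 bp of the annotated start or end of the gene. Since each genotype has 1 library, no replicate error and no test can be given, and a gene is called lost or gained only in the sense that 1 list has a gene-end peak and the other does not. The targeted gene matched its labels: Mtor had no gene-end peak in KO, one of score 210.27 in KI and one of 341.21 in WT. Of 12 HSC marker genes, 4 had a gene-end peak in KO, 6 in KI and 7 in WT. Kit, Hlf, Meis1 and Mecom had one in every list, and the sorting markers Ly6a and Slamf1 in none. Of 29 markers of erythroid, myeloid, lymphoid, megakaryocytic, endothelial and stromal cells, 7 had one in KO, 16 in KI and 4 in WT. Over all protein-coding genes the shares with one were 44.1% in KO, 51.4% in KI and 44.2% in WT. In libraries of many cells, fewer cells with an open region and less opening per cell cannot be told apart.

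Most respiratory chain genes were open at an annotated end in all genotypes. A gene-end peak was present at 70 of the 90 genes in KO (77.8%, Wilson 95% interval 68.2 to 85.1), 77 in KI (85.6%, 76.8 to 91.4) and 72 in WT (80.0%, 70.6 to 87.0). Among all protein-coding genes the background shares were 44.1% in KO, 51.4% in KI and 44.2% in WT. The intervals cover counting error over genes and nothing else. All 3 lists had a gene-end peak at 66 of the 90 genes, and 10 genes had none in any list. The remaining 14 differed between lists, and those reported here by name are described further on.

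**Figure D1:**
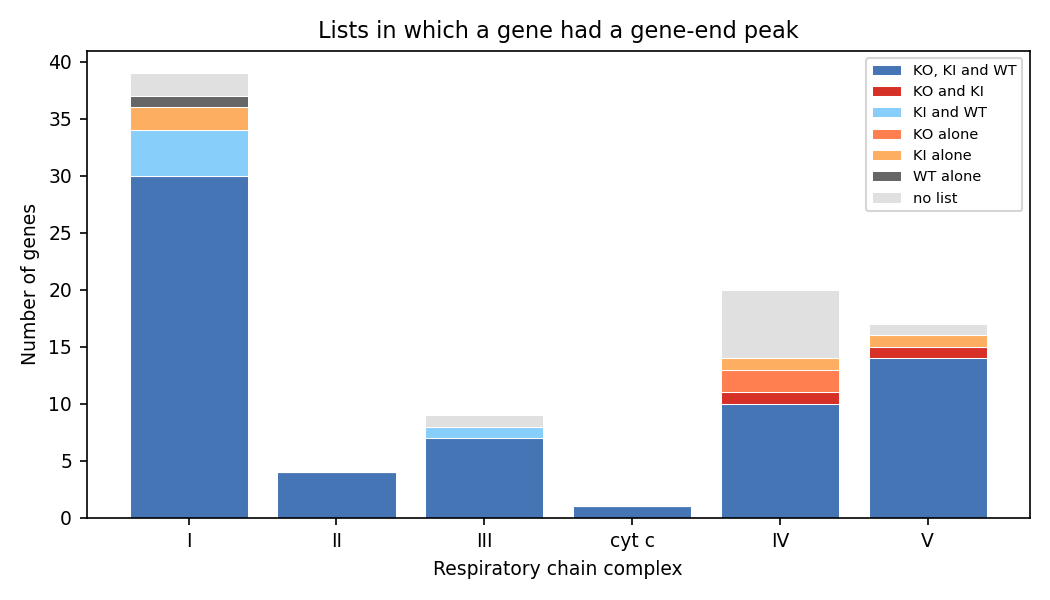
Number of genes of each complex (vertical axis) by the lists in which they had a gene-end peak; each bar is 1 complex and colours stand for the combination of lists. Genes with a peak in KO, KI and WT alike make up 30 of 39 in complex I, all 4 in complex II and 10 of 20 in complex IV, where 6 genes had a peak in no list.

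The peaks sat over transcription starts. Strand was known for the 72 genes found in the RefSeq promoter table. Among those with a gene-end peak, the highest-scoring one covered the annotated start at 55 of 58 genes in KO, 60 of 64 in KI and 56 of 62 in WT. Many of these peaks lay close to a second gene. In each of KO, KI and WT, 36 genes had their highest-scoring peak within 1000 bp of an end of another protein-coding gene. The neighbour was in several cases itself a mitochondrial gene, cases chosen after their values were seen. Ndufb5 lay beside Mrpl47 and Ndufs6 beside Mrpl36, both genes for mitochondrial ribosomal proteins. The Uqcrb peak lay at Gm10767 and also within 1000 bp of Mterf3, a regulator of mitochondrial transcription and ribosome assembly. The highest peak of Mterf3 was another one, near Ptdss1. Sdhd lay beside Timm8b, an import chaperone. A peak at such a pair cannot be assigned to 1 of the genes. Peaks over starts and peaks near a second gene were not counted over all genes. Neither is thus shown to be particular to the respiratory chain genes.

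The median percentile of the highest gene-end peak was 76.1 over the 70 genes in KO, 78.4 over 77 in KI and 63.9 over 72 in WT. Over all protein-coding genes with a gene-end peak it was 72.0 in KO, 78.2 in KI and 69.5 in WT. The spread among the respiratory chain genes was wide, from 0.855 to 98.1 in KO, from 5.40 to 98.5 in KI and from 5.73 to 97.5 in WT. Peaks above the 75th percentile numbered 38 in KO (54.3%), 49 in KI (63.6%) and 21 in WT (29.2%). Over all genes with a gene-end peak the shares were 45.5% in KO, 55.8% in KI and 42.4% in WT. By both the median and this share, the respiratory chain genes stood above all genes in KO and below them in WT. The interval of their median was 69.8 to 79.7 in KO and 56.3 to 71.3 in WT. These intervals include the all-gene medians of 72.0 in KO and 69.5 in WT, so the medians do not separate the respiratory chain genes from all genes. No interval is given for the share, and no change between KO and WT is read from these positions.

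**Figure D2:**
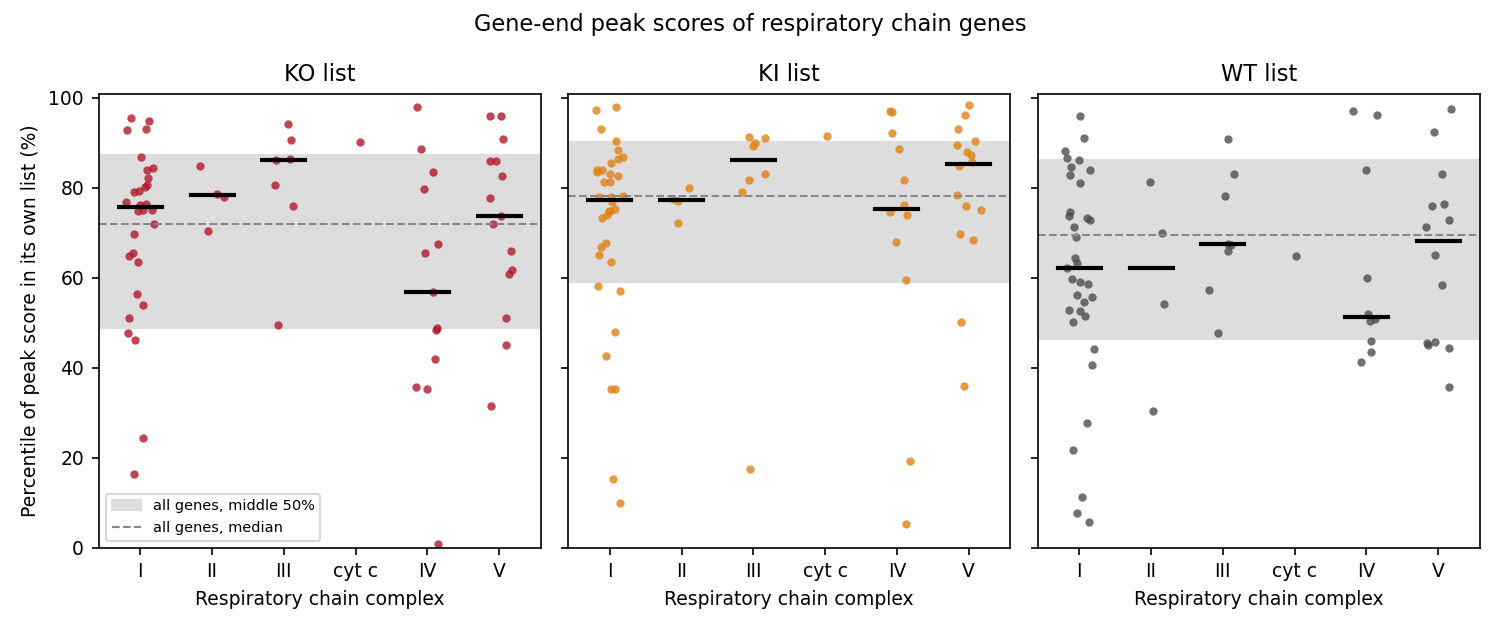
Percentile of the highest-scoring gene-end peak within its own list (vertical axis, %) for each respiratory chain gene that had one, by complex, in the KO, KI and WT lists; black bars are medians, the dashed line and grey band are the median and middle 50% of all protein-coding genes with a gene-end peak. Complex IV has the lowest median in every list, 56.8 in KO, 75.4 in KI and 51.4 in WT, and percentiles are not comparable between panels.

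The highest score among these genes was that of Cox7c in KO and of Atp5j in KI and WT. Atp5j encodes coupling factor 6 of the ATP synthase stalk. Its gene-end peak scored 286.27 (percentile 95.9) in KO, 514.44 (98.5) in KI and 362.81 (97.5) in WT. The WT peak, at chr16:84834585-84836035, also lay within 1000 bp of an end of the neighbouring gene Gabpa, which encodes the DNA-binding subunit of GABP. Cox7c, a small subunit of complex IV, scored 353.08 (98.1) in KO, 438.08 (97.2) in KI and 353.71 (97.2) in WT. Ndufa4 followed in WT at 327.34 (96.2), against 204.78 (88.7) in KO and 426.71 (96.9) in KI. Atp5j and Cox7c thus stood above percentile 95 in every list, and their upstream sequences are shown because they differ in known motifs. Each is the 250 bases before a start site in RefSeq, GRCm38.p6, in the direction of transcription. Capitals mark matches on either strand to any of 5 motifs. The NRF1 core was searched as GCATGCG. The ETS core was searched as CCGGAAG. The YY1 core was searched as ATGGCGG. The CCAAT box and the Sp1 box, GGGCGG, completed the search. For Atp5j, the start site farther into the gene of the pair in the table is shown. The other start site of Atp5j lies under the same peak in each list. Its upstream sequence holds an Sp1 box and no NRF1, ETS or YY1 core. The presence of these cores at Atp5j and not at Cox7c thus holds only for the start site shown. Atp5j, chr16:84834977-84835226, minus strand, has an NRF1 core, a YY1 core and an ETS core, and Cox7c, chr13:86046796-86047045, minus strand, has none of the 5 motifs.
Atp5j: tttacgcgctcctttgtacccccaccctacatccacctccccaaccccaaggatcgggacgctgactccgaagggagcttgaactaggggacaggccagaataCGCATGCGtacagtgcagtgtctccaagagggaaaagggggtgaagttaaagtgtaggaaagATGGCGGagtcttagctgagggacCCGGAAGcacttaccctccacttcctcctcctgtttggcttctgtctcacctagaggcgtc
Cox7c: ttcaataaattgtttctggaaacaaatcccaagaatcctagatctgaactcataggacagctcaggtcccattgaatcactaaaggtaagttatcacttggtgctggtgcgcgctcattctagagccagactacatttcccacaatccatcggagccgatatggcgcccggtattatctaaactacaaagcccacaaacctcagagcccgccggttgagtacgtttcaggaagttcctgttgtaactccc

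Complex I, the NADH dehydrogenase, has 39 genes here, 7 of them for the core subunits that carry the flavin, the iron-sulfur clusters and the quinone site. A gene-end peak was present at 30 of the 39 in KO, 36 in KI and 35 in WT. The median percentile over those with a peak was 75.7 in KO, 77.3 in KI and 62.2 in WT. Among core genes 4 of 7 had a gene-end peak in KO, all 7 in KI and 6 in WT. Among accessory genes the counts were 26 of 32 in KO, 29 in KI and 29 in WT.

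In complex I the highest WT score belonged to Ndufv2, a core subunit with an iron-sulfur cluster. Its score was 242.8 in KO (percentile 92.8), 446.69 in KI (97.4) and 318.23 in WT (95.9). Ndufa5, an accessory subunit of the peripheral arm, came next in WT, with percentiles of 95.6 in KO, 93.1 in KI and 91.1 in WT. The peak shared by Ndufb5 and Mrpl47 stood at 93.0 in KO, 98.1 in KI and 88.2 in WT. At the other end were 2 genes of the membrane arm, Ndufb8, described below, and Ndufb7. Ndufb7 had its highest peak at percentile 76.8 in KO, 75.3 in KI and 7.68 in WT. The WT peak of Ndufb7 lay 53 bp from the start, while the KO and KI peaks covered it. Ndufb10, also of the membrane arm, was low in KO and WT, at 24.5 in KO, 57.0 in KI and 11.3 in WT. Ndufa1 and Ndufa7 were low in KI, with percentiles of 47.7 and 51.0 in KO, 15.3 and 9.89 in KI and 50.2 and 44.3 in WT. Ndufb4b and Ndufb4c, listed as copies of Ndufb4, had no gene-end peak, and the closest peak was at least 18712 bp away in every list. Short reads from near-identical copies do not always map uniquely, so their absence is uncertain. Ndufb4 itself stood at 80.2 in KO, 85.6 in KI and 81.0 in WT.

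Complex II, succinate dehydrogenase, feeds electrons from succinate into the chain. A gene-end peak was found at each of its 4 genes in every list. Sdha, the flavoprotein, scored 124.54 in KO, 180.58 in KI and 183.17 in WT. Sdhb, the iron-sulfur subunit, scored 179.49 in KO, 196.68 in KI and 139.26 in WT. The membrane anchor Sdhc scored 151.72 in KO, 178.44 in KI and 70.92 in WT, and the anchor Sdhd 149.17 in KO, 155.29 in KI and 101.7 in WT. The percentiles lay between 70.5 and 84.8 in KO, between 72.3 and 80.1 in KI and between 30.4 and 81.3 in WT, where Sdhc was lowest.

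In complex III, 7 of 9 genes had a gene-end peak in KO, 8 in KI and 8 in WT. Uqcrq stood highest in WT, at percentile 90.9, against 75.9 in KO and 91.0 in KI, and Uqcrh came next, with 86.3 in KO, 90.1 in KI and 83.2 in WT. The Uqcrq peak also lay at Gdf9 and the Uqcrh peak at Lrrc41. Uqcrfs1, the Rieske iron-sulfur protein, scored 189.48 in KO, 189.28 in KI and 132.89 in WT. Uqcr10, a small subunit, was the second lowest in WT, at percentile 57.3, against 80.7 in KO and 83.0 in KI. Cyc1, which encodes cytochrome c1, was without a gene-end peak, and the closest peak was 4798 bp away in KO, 4630 bp in KI and 4223 bp in WT. Cycs, the mobile carrier between complexes III and IV, had its peak at percentile 90.2 in KO, 91.6 in KI and 64.8 in WT.

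Complex IV, cytochrome c oxidase, had the lowest share of open genes among the complexes, with 13 of 20 in KO, 12 in KI and 10 in WT. It is also the complex with tissue-restricted paralogues, 8 in this list: Cox4i2, Cox6a2, Cox6b2, Cox7a1, Cox7b2, Cox8b, Cox8c and Ndufa4l2. Of these, 3 had a gene-end peak in KO, 3 in KI and 2 in WT, while of their 7 widely expressed partners 6 had one in KO, 5 in KI and 5 in WT. Cox6a2 and Cox8b, expressed in heart and skeletal muscle, and the testis forms Cox7b2 and Cox8c had no gene-end peak in any list. Cox8a, the widely expressed partner of Cox8b and Cox8c, had peaks at percentiles 83.6 in KO, 88.6 in KI and 60.0 in WT. Cox6a1, the partner of Cox6a2, stood at 65.6 in KO, 76.2 in KI and 41.4 in WT. Cox6b1, the partner of Cox6b2, stood at 42.0 in KO, 59.6 in KI and 43.5 in WT. Cox4i1, the partner of Cox4i2, stood at 56.8 in KO, 81.8 in KI and 52.0 in WT, near an end of Emc8.

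A pair of tissue-restricted paralogues had a gene-end peak in every list. The testis form Cox6b2 had one of score 117.12 (percentile 67.5) in KO, 53.08 (5.40) in KI and 95.34 (50.4) in WT. In all 3 lists this peak also lay near an end of Fam71e2, so it cannot be assigned to Cox6b2 alone. Cox7a1, the heart and skeletal muscle form of subunit VIIa, had one of 85.72 in KO, 137.8 in KI and 95.95 in WT, which covered its start in all 3 lists. Its widely expressed partner Cox7a2 had no gene-end peak. This absence came from the annotation: the gene as annotated extends past the start site in the promoter table, and a peak covered that start site. This peak, inside the annotated gene, scored 147.51 (percentile 77.6) in KO, 240.7 (85.8) in KI and 214.14 (86.5) in WT. Both forms of subunit VIIa were thus open at a start in all 3 genotypes, and their upstream sequences are shown because of this. Capitals mark the same motifs as above. Cox7a1, chr7:30183921-30184170, plus strand, has CCAAT boxes on the opposite strand, and Cox7a2, chr9:79759854-79760103, minus strand, has an Sp1 box.
Cox7a1: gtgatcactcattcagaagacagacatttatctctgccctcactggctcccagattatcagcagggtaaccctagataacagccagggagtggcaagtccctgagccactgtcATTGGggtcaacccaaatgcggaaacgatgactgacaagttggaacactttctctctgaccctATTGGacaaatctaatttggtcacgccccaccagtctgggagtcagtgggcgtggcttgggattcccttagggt
Cox7a2: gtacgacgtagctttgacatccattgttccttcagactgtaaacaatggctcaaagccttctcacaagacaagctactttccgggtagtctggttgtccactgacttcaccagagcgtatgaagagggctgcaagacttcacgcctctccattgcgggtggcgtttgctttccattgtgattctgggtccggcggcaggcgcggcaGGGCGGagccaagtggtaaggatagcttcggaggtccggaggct

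A peak at a tabulated start inside the annotated gene was also found at Cox5a and Atp5d. Cox5a, a subunit of the complex IV matrix domain, had a peak over its tabulated start site of score 106.7 (percentile 56.9) in KI and 64.49 (22.4) in WT, and none there in KO. Atp5d, the delta subunit of the ATP synthase head, had peaks over its tabulated start sites of 62.74 (23.2) in KO, 92.4 (49.4) in KI and 54.59 (7.80) in WT. Counted at the tabulated start sites, 59 of the 72 genes in the promoter table had a peak in KO, 66 in KI and 62 in WT. Over the 17492 protein-coding genes in that table the shares were 44.1% in KO, 50.6% in KI and 44.5% in WT.

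Of the 17 ATP synthase genes, 15 had a gene-end peak in KO, 16 in KI and 14 in WT. Atp5e, the epsilon subunit of the catalytic head, scored 167.9 in KO (percentile 82.6), 260.53 in KI (88.0) and 266.08 in WT (92.4), near an end of Prelid3b. Atp5b, the catalytic beta subunit, scored 134.63 in KO, 254.36 in KI and 192.8 in WT. The genes for the c subunit of the proton-driven ring differed among themselves. Atp5g1 stood at percentiles 95.9 in KO, 96.2 in KI and 76.4 in WT, and Atp5g2 at 85.9 in KO, 90.5 in KI and 71.3 in WT. Atp5g3 stood at 45.0 in KO, 78.4 in KI and 44.4 in WT, and its peak lay 799 bp inside the annotated start in KO, 770 bp in KI and 797 bp in WT, and in all 3 lists it covered the start site in the promoter table. The lowest WT percentile in the complex, 35.8, was that of Atp5md, with 60.9 in KO and 69.7 in KI.

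The comparison of KO with WT asks what differs when Mtor is deleted. Of the 72 respiratory chain genes with a WT gene-end peak, 6 had none in KO: Ndufa9, Ndufb8, Ndufs3, Ndufs4 and Ndufs7 of complex I, and Uqcr11 of complex III. That is 8.33% (3.88 to 17.0), against 10.5% of all genes with a WT gene-end peak, 1017 of 9677. The share was thus near the background. Of the 6 lost genes 5 belong to complex I, as do 35 of the 72 with a WT peak. Losses were more frequent at low WT scores, as they were over all genes. Among genes with a WT percentile of 0 to 25, 2 of 4 respiratory chain genes were lost, against 43.0% of all genes. At 25 to 50 it was 2 of 13, against 21.9%, and at 50 to 75 it was 2 of 34, against 6.05%. Above 75 no respiratory chain gene of 21 was lost, against 0.683% of all genes. The comparisons with WT share its list, and KI against KO uses the same KO and KI lists again, so the 3 sets of calls are not independent.

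**Figure D3:**
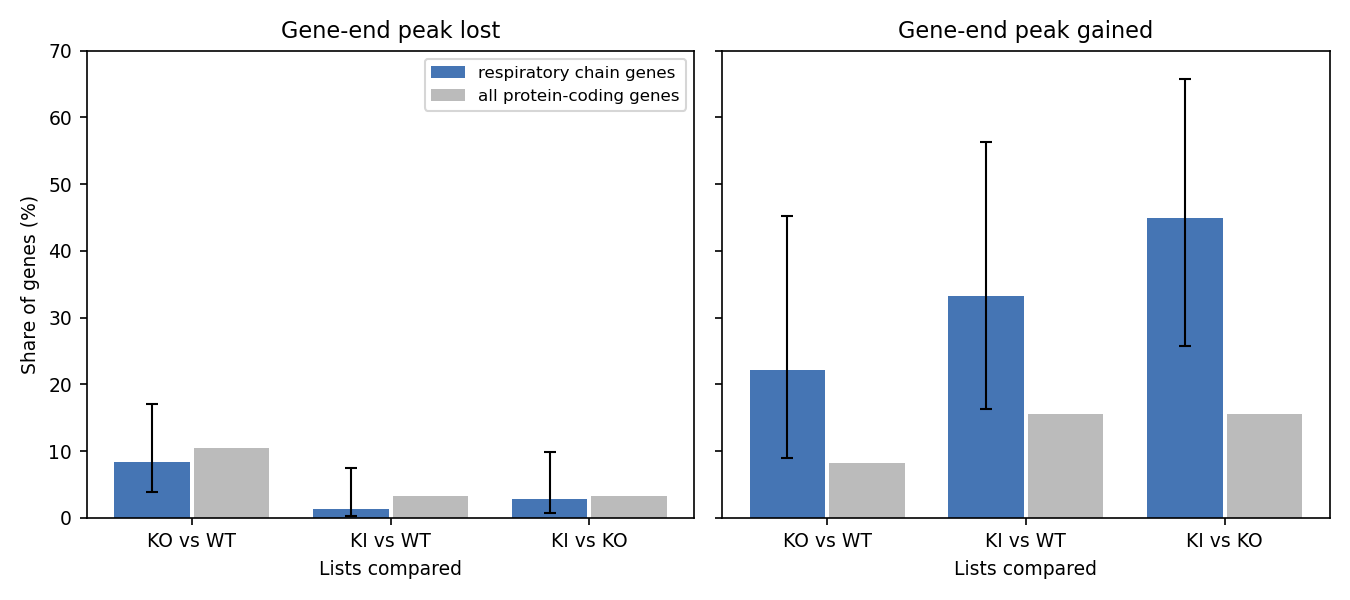
Share of genes (vertical axis, %) whose gene-end peak was lost (left) or gained (right) in KO against WT, KI against WT and KI against KO; blue bars are respiratory chain genes with Wilson 95% intervals, which cover counting error over genes only, and grey bars all protein-coding genes. The lost shares of 8.33%, 1.39% and 2.86% stand beside 10.5%, 3.29% and 3.25% over all genes.

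Ndufa9, an accessory subunit where the peripheral arm of complex I meets the membrane arm, had no gene-end peak in KO or KI. In WT a 469 bp peak over its start, chr6:126848794-126849262, scored 98.99 at percentile 52.7. Ndufs4 encodes an accessory subunit of the NADH-binding module, whose loss in mice models Leigh syndrome. It had no gene-end peak in KO, against an 801 bp peak of score 167.31 (percentile 74.9) in KI and peaks of 97.2 (51.6) and 53.13 (5.24) in WT. Ndufs7, the core subunit that holds the iron-sulfur cluster next to quinone, had no gene-end peak in KO. It had one of 124.09 (63.6) in KI and one of 68.68 (27.8) in WT, both over the annotated gene start, and the WT peak ended before the start site used for the sequence below. Ndufs3, a core subunit of the quinone module, likewise lacked one in KO, with peaks of 133.9 (66.9) in KI and 63.92 (21.8) in WT near an end of Kbtbd4. The KI peaks of Ndufs3, Ndufs4 and Ndufs7 overlapped the WT peaks, and no KO peak overlapped any of them.

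The upstream sequences of Ndufa9, Ndufs3, Ndufs4 and Ndufs7 are shown as those of complex I genes with a peak there in WT and none in KO. In the 250 bases before the start, Ndufs3 held 2 Sp1 boxes and an ETS core that overlaps one of them, in capitals, and Ndufa9, Ndufs4 and Ndufs7 held none of the 5 motifs. Of the other lost genes, Ndufb8 held an Sp1 box and Uqcr11 an ETS core there. Uqcr11 also had an NRF1 core that began before the start and ran past it. Ndufa9 is at chr6:126849145-126849394, minus strand, Ndufs3 at chr2:90904722-90904971, minus strand, Ndufs4 at chr13:114388095-114388344, minus strand, and Ndufs7 at chr10:80249199-80249448, plus strand.
Ndufa9: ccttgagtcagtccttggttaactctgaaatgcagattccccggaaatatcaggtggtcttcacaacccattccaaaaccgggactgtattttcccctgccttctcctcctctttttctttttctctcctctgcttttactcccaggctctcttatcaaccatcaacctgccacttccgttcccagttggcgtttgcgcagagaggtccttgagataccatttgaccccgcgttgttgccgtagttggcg
Ndufs3: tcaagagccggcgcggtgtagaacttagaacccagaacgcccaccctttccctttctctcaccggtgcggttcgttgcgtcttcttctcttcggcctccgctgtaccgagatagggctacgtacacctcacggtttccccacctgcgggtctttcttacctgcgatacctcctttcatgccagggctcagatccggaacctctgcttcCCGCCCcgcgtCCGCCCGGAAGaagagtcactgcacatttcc
Ndufs4: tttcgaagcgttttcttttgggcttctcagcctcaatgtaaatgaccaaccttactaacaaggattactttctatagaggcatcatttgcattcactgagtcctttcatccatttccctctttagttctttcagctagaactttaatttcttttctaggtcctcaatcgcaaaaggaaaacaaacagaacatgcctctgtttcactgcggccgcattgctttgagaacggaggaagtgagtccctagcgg
Ndufs7: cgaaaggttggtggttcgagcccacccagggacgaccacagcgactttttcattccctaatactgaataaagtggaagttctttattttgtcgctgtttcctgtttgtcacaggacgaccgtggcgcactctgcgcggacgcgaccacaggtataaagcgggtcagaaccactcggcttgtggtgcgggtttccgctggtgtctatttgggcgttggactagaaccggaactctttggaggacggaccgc

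In 3 of the 6 lost genes the YY1 core ATGGCGG lay just after the start, beginning at base 33 in Ndufa9, 39 in Ndufs4 and 28 in Ndufs7, counted from the start site as base 1. Ndufs3, Ndufb8 and Uqcr11 had no YY1 core in their windows. In the 50 bases after the start it lay in 6 of the 77 windows of respiratory chain genes (7.79%), against 2.67% for all protein-coding genes. It was on the gene strand in 5 of these 6 windows and in 425 of the 568 of protein-coding genes. The core begins with ATG, and whether these matches are translation starts was not tested. Bases 21 to 50 of the 3 genes that hold it, picked after the match was seen, are shown with that core in capitals. They lie at chr6:126849095-126849124, chr13:114388045-114388074 and chr10:80249469-80249498. The same core also lay in the 50 bases after the start of genes whose peak was present in every list, namely Ndufb5, Ndufs6 and Atp5b.
Ndufa9: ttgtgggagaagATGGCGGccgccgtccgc
Ndufs4: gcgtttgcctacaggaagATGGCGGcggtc
Ndufs7: ggccaagATGGCGGcgctggcgggtgagtg

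Ndufb8, an accessory subunit of the membrane arm, and Uqcr11, the smallest subunit of complex III, complete the lost genes. Ndufb8 had no gene-end peak in KO, a 155 bp peak of score 82.48 (42.6) over the gene end in KI and a 400 bp peak of 53.38 (5.73) in WT, 264 bp inside the gene. The KI and WT peaks of Ndufb8 did not overlap. Uqcr11 had none in KO, one of 59.9 (17.5) in KI and one of 90.86 (47.7) in WT, both over its start.

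**Figure D4:**
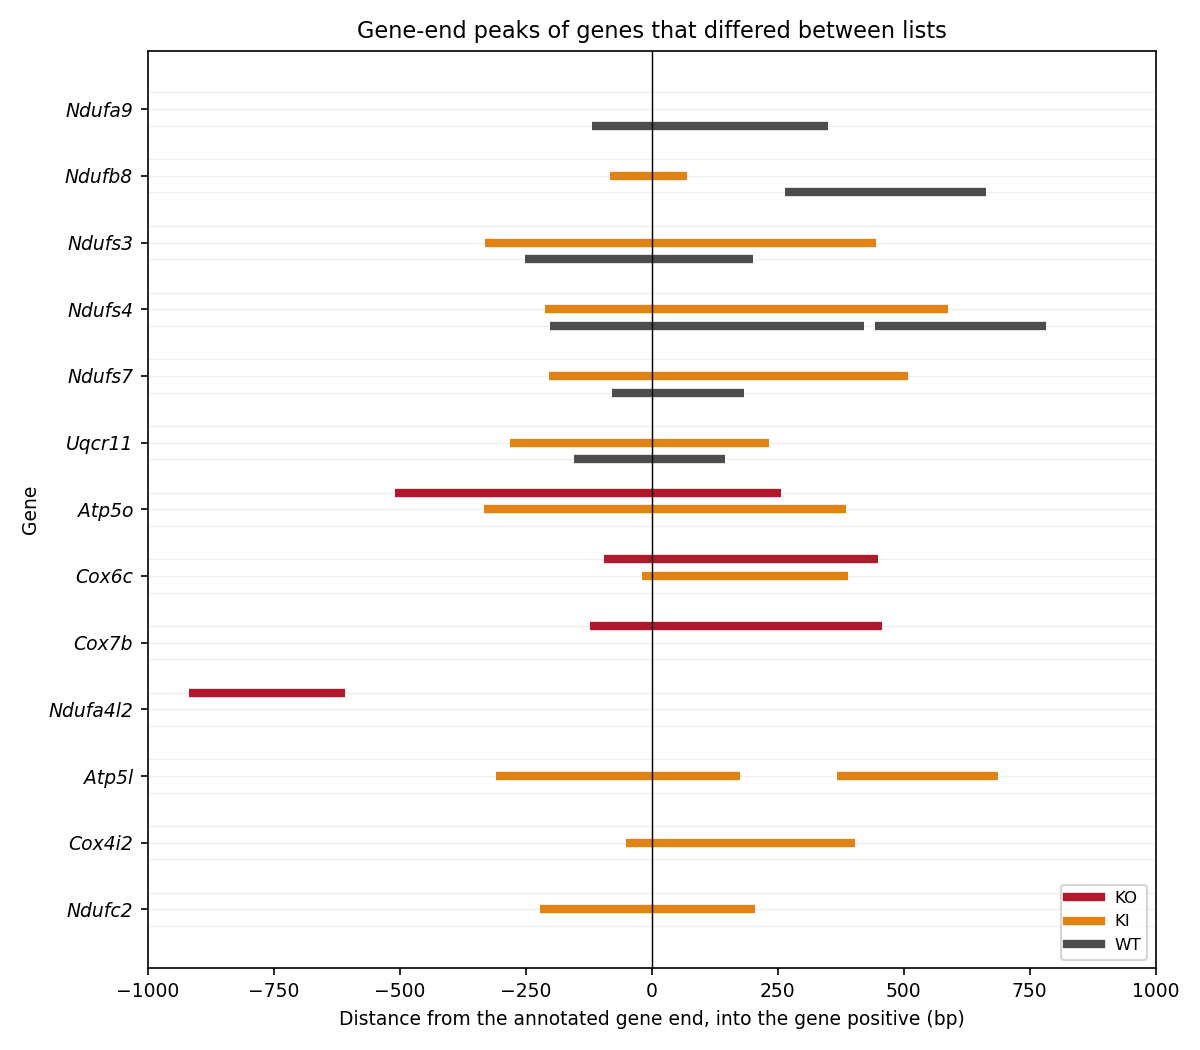
Gene-end peaks of 13 of the 14 genes that differed between lists, drawn as bars to scale by distance from the annotated gene end (horizontal axis, bp, positive into the gene), with KO, KI and WT on successive lines. Bars of Ndufs3, Ndufs4, Ndufs7 and Uqcr11 cover the gene end in KI and WT with none in KO, and those of Atp5o and Cox6c in KO and KI with none in WT.

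Of the 18 respiratory chain genes without a WT gene-end peak, 4 had one in KO (22.2%, 9.0 to 45.2), against 8.21% of all genes without one, 1003 of 12210. Atp5o, which encodes the OSCP subunit that ties the ATP synthase head to its stalk, had a peak over its start of score 105.48 (percentile 61.8) in KO and 93.62 (50.2) in KI, and none in WT. Cox6c, an accessory subunit of complex IV, had one of 72.17 (35.8) in KO and 165.69 (74.6) in KI, and none in WT. The KO and KI peaks overlapped each other at both genes. Cox7b, another accessory subunit, had one of 71.63 (35.2) in KO alone. Ndufa4l2, a hypoxia-induced paralogue of Ndufa4, had one of 50.48 in KO alone, which is at percentile 0.855 and 609 bp from the gene, near an end of Stac3. The Ndufa4l2 peak was thus close to the minimum score of the list.

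The 250 bases before the start of Atp5o, chr16:91931631-91931880, minus strand, are shown as those of a gene open in both mutants and not in WT. They hold none of the 5 motifs.
Atp5o: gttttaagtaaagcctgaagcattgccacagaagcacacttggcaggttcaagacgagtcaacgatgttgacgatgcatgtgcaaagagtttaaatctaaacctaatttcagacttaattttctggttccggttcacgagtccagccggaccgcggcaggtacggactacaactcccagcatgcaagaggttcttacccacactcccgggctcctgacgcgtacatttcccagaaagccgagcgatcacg

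The comparison of KI with WT covers the knock-in allele, deletion of the floxed allele and Cre together. Ndufa9 alone of the 72 genes was lost (1.39%, 0.246 to 7.46), against 3.29% of all genes, 318 of 9677. Of the 18 genes without a WT gene-end peak, 6 had one in KI (33.3%, 16.3 to 56.3), against 15.5% of all such genes, 1896 of 12210. They included Atp5o and Cox6c, given above, and Atp5l, Cox4i2 and Ndufc2. Atp5l, subunit g of the ATP synthase membrane part, had peaks of 74.64 (35.9) and 52.02 (3.63) in KI and none in KO or WT. Ndufc2, a membrane arm subunit of complex I, had one of 73.79 (35.2) in KI alone. Cox4i2, a form of subunit IV known from lung, had one of 61.09 (19.4) in KI alone, over an annotated end. These genes seen in KI alone thus stood at percentile 35.9 or below in the longest list. With the lists cut to the same number of peaks, 2 genes were gained in KI against WT, Atp5o and Cox6c, and 5 were lost, Cox6b2, Ndufa1, Ndufa7, Ndufa9 and Uqcr11. At that size the shares over all genes were 8.44% lost and 7.77% gained.

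The comparison of KI with KO sets the knock-in allele against deletion of Mtor, and the label of re-analysis differs as well. Of the 70 genes with a KO gene-end peak, 2 were without one in KI, Cox7b and Ndufa4l2 (2.86%, 0.787 to 9.83), against 3.25% of all genes, 314 of 9663. Of the 20 without one in KO, 9 had one in KI (45.0%, 25.8 to 65.8), against 15.6% of all such genes, 1906 of 12224. They included Ndufb8, Ndufs3, Ndufs4, Ndufs7 and Uqcr11, which had one in WT too, and Atp5l, Cox4i2 and Ndufc2, which had not. At equal list size Ndufb8, Ndufs3, Ndufs4 and Ndufs7 remained, 4 of 21 genes (19.0%), against 9.55% of all genes. Markers of other cell types with a gene-end peak were more numerous in KI, 16 of 29 against 7 in KO and 4 in WT. Over all protein-coding genes the shares with one were 51.4% in KI, 44.1% in KO and 44.2% in WT. The number of peaks was highest in KI as well. What part the markers or the number of peaks had in the KI gains was not tested.

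The motifs of the known regulators were counted in 77 promoter windows of 300 bases, from 250 before to 50 after the start, belonging to the 72 genes in the table. Either strand counted. The NRF1 core was in 12 of the 77 windows (15.6%), against 3.58% of all 32851 promoters of the table, 4.44% of those of protein-coding genes and 7.24% of those with a WT peak. Its holders included Cycs, Sdhb, Uqcrc1 and Atp5g2. The ETS core was in 17 (22.1%), against 8.86% of all promoters, 11.6% of coding-gene promoters and 20.5% of those with a WT peak, among them Atp5e, Cox8a, Sdhd and Uqcrh. The YY1 core was in 11 (14.3%), against 4.05% of all promoters, 5.25% of coding-gene promoters and 9.44% of those with a WT peak. By gene, it was in 8 of 34 complex I genes, 2 of 15 complex V genes and 0 of 14 complex IV genes. CCAAT was in 41.6% of the windows, against 37.4% of all promoters, 38.2% of coding-gene promoters and 40.0% of those with a WT peak. The Sp1 box was in 40.3%, against 35.7% of all promoters, 46.2% of coding-gene promoters and 70.6% of those with a WT peak. These are counts of letters, not of sites in use. A window with several matches to a motif counted once.

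The assembly factors, which build the complexes without staying in them, were examined beside the subunits. Of 45, 40 had a gene-end peak in KO, 43 in KI and 41 in WT. In KO against WT 3 were lost (7.32%), beside 10.5% of all genes. Surf1, needed for complex IV assembly and mutated in Leigh syndrome, had no peak in KO, 83.25 (percentile 43.2) in KI and 52.75 (4.61) in WT. These peaks lay near an end of Surf2. Sco2, which delivers copper to complex IV, had no peak in KO, 74.23 in KI and 110.62 in WT, near an end of Ncaph2. Uqcc1, which assists cytochrome b synthesis, had no peak in KO, 152.59 (71.6) in KI and 57.3 (12.3) in WT. The WT peaks of Surf1 and Uqcc1 were thus low in their list. Ndufaf6 was present in KO (112.61) and KI (127.17) and absent from WT, and so was Cox16 (74.91 in KO and 143.07 in KI). KI lost none of the assembly factors against WT, beside 3.29% of all genes.

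Among 19 regulators and factors of mitochondrial DNA expression, 15 had a gene-end peak in KO, 16 in KI and 12 in WT. In KO against WT 1 was lost (8.33%, beside 10.5% of all genes). Of the 7 without a WT gene-end peak 4 were gained (57.1%), beside 8.21% of all genes. KI against WT gained the same 4 (57.1%), beside 15.5% of all genes, and lost none, beside 3.29%. Ppargc1a, which encodes PGC-1α, had no gene-end peak in KO, 111.88 in KI and 70.99 in WT. Its relative Ppargc1b had one of 56.37 (percentile 11.9) in KO and 122.82 (63.2) in KI and none in WT. Polrmt, the mitochondrial RNA polymerase, had one of 56.3 (11.8) in KO and 135.92 (67.5) in KI and none in WT. The KO peaks of Ppargc1b and Polrmt were thus low in their list. Twnk, the mitochondrial DNA helicase, had one of 114.36 in KO and 139.54 in KI and none in WT, near an end of Mrpl43. Polg2, the accessory subunit of the mitochondrial DNA polymerase, had one of 79.17 in KO and 136.95 in KI and none in WT, near an end of Ddx5. Gabpa, Nrf1, Yy1, Tfam and Esrra had a gene-end peak in every list. Both lists of genes were drawn up with earlier results of these data known.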

How the data were processed

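The authors deposited 1 peak list per ATAC-seq library, without header and with 5 columns: chromosome, start, end, a MACS peak name and a score. Per the labels' protocols, transposition ran for 30 min at 37 °C. The submitters' processing notes name mm10 as the build and CASAVA as a tool. Which aligner, MACS version, control, duplicate handling, read shift or filter was used is not given in the sources used here. The depth of the libraries is unknown, and a deeper library yields more weak peaks. The 12 RNA-seq samples were not analysed here.

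Peaks were called per library. Autosomal, X and Y peaks were intersected with gene ends of RefSeq GRCm38.p6 (window 1000 bp) in Python 3.11.15 with numpy 2.4.6 and pandas 2.3.3. Wilson intervals came from scipy 1.17.1. The overlap code was tested on simulated intervals. Percentiles were computed from the deposited scores within a list. Wilson 95% intervals cover counting error only. Genes were named by this rule: members lost or gained in any pair, the 2 highest and lowest WT percentiles of a complex, members without a gene-end peak, and the paralogues with their partners, with a few further members given as examples after their values were seen. Promoter sequences came from RefSeq for 72 of the 90 members. Members and lists were chosen with earlier results of these data known. Alternatives were windows of 500 and 2500 bp, equal list size, a score of at least 100, gene starts alone, overlap of peaks, and, added after seeing the data, nearest gene and tabulated start sites. The values of 1 member are not reported here, although it is counted.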

Additional observations from a re-analysis of the deposited data

How the results depend on the processing

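No paired analysis was possible because each genotype had 1 ATAC-seq library, and no library could be left out for the same reason. Of 78 recomputed values, 62 stayed within 1.5 times the reported count or, for median percentiles, within the interval of the median, and 16 did not. KO losses against WT numbered 6 under each alternative except tabulated start sites, where they were 7. Their share ran from 8.22% with the 2500 bp window to 12.5% with a score of at least 100, against 10.2% and 16.4% of all genes. At tabulated start sites it was 11.3%, against 10.4%. There Cox5a and Ndufa13 were among the lost genes and Ndufb8 was not. A score of at least 100 was applied alike to the 3 lists, although their scores may not be comparable. The 6 genes lost with that minimum were others: Atp5h, Ndufa8, Ndufc1, Ndufs1, Ndufs6 and Uqcrc1. KO gains against WT were 10 with that score minimum (23.8%, against 5.82% of all genes) and 2 of 10 genes with gene starts alone (against 7.50%), where genes without strand were left out. KI losses against WT were 5 at equal list size (6.94%, against 8.44%) and 2 with nearest gene only (2.86%, against 3.62%), with tabulated start sites (3.23%, against 3.11%) and with both overlap rules (2.78%, against 3.46% for 1 bp and 5.08% for 50% of the peak). KI gains against WT were 2 at equal list size (11.1%, against 7.77%), 19 with the score minimum (45.2%, against 16.2%) and 3 with gene starts alone (30.0%, against 14.1%). KI losses against KO were 4 at equal list size (5.80%, against 7.12%), and 1 with the 500 bp window (1.47%, against 3.12%), with gene starts alone (1.72%, against 2.74%) and with tabulated start sites (1.69%, against 3.10%). KI gains against KO were 4 at equal list size (19.0%, against 9.55%) and 16 with the score minimum (42.1%, against 17.0%). The cause was not tested. Read depth is unknown, so how far the length of a list follows depth was not tested.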

Other observations

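Some respiratory chain genes held peaks farther inside, more than 1000 bp from either annotated end. Ndufa4l2 had one of score 71.96 in KO, 135.49 in KI and 74.56 in WT. Sdha (71.07) and Ndufab1 (56.77) had an inner peak in KI alone, and Atp5g2 (50.85) in KO alone.

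With all lists cut to 17316 peaks, the median percentile of the respiratory chain genes was 73.7 in KO, 69.4 in KI and 63.9 in WT, against 70.6 in KO, 69.9 in KI and 69.5 in WT over all genes with a gene-end peak. The lowest score kept was then 55.15 in KO, 77.95 in KI and 50.01 in WT.

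The YY1 core lay in the 50 bases after the start in 6 of the 77 promoter windows of respiratory chain genes (7.79%), against 2.67% of those of all protein-coding genes. In the 250 bases before the start it lay in 5 (6.49%), against 2.58%.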
